A study of Mus musculus with 18 samples.

Results

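A set of 10 cell adhesion genes of the contact between oligodendrocyte and axon was followed: Nfasc, Cntn1, Cntn2, Cntnap1, Nrcam, Ncam1, L1cam, Cadm1, Cadm4 and Lingo1. They were chosen by gene symbol, and all 10 were found among the 38046 genes of the deposited table, where they are represented by 40 transcripts. RNA was measured by RNA sequencing in clonal lines of mouse oligodendrocyte progenitor cells (OPCs) that had been derived from primary neural stem cells. The control group held 3 clones, D7, D3 and E8, and the Thap1 null group held 3 clones, 3F, D6 and 7F; Thap1 encodes a zinc-finger DNA-binding protein. Each clone was sampled as OPCs in growth medium with PDGF-AA (day 0), and after 2 and 4 days in oligodendrocyte differentiation medium with the thyroid hormone T3 (DIV2 and DIV4), which gave 6 groups of 3 libraries. How the null allele was made, and the age and strain of the source animals, are not given in the sources used here. Each library is 1 clone, so p-values measure the spread between clones, which were numbered only within their genotype.

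At the paranode, the loops of the myelin sheath are sealed to the axon by the glial form of neurofascin (Nfasc), which binds a complex of contactin 1 (Cntn1) and Caspr (Cntnap1) on the axon. Contactin 2 (Cntn2) holds potassium channels beside the paranode, NrCAM (Nrcam) and the neuronal form of neurofascin gather sodium channels at the node, and NCAM (Ncam1), L1 (L1cam) and the SynCAM proteins (Cadm1, Cadm4) act earlier or along the internode, where SynCAM 4 binds partners on the axon. LINGO-1 (Lingo1) is a leucine-rich repeat protein known as a brake on oligodendrocyte differentiation. The cultures were grown without added neurons as far as the labels state, so axonal genes are read here in glial cells.

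Protein-coding transcripts made up 5.05% to 9.003% of the TPM (a length-corrected abundance with a fixed sum per library) in the control OPC libraries and 19.1% to 38.8% in the other 15, the rest being largely noncoding RNA. A deposited value thus falls when other RNA fills the library. Values below are therefore TPM rescaled by a median-of-ratios factor ("rescaled TPM"), and changes are differences of log2(rescaled TPM + 1), which understate the change of low genes. On the deposited scale the median of all 12479 tested genes was 1.53 log2 units higher in null than in control OPCs, against 0.02 after rescaling. With protein-coding transcripts only, an alternative scale, the median also moved. It was 0.43 for null against control OPCs (10782 genes), and 0.66 and 0.70 for control DIV2 and DIV4 against OPC. All comparisons that involve the control OPC libraries rest on the choice of scale. Thap1, summed over its coding transcripts, was at 1.84 to 4.52 rescaled TPM in the 9 control libraries and 0.199 to 0.776 in the 9 null libraries. The control D7 library at DIV4 stood apart: the summed level of 12 oligodendrocyte markers was 13050 there and 2115 to 3168 in the other 5 DIV4 libraries, while 8 astrocyte markers summed to 13.8 there and to 196 to 509 in the others. The 12 neuron markers summed to 67.4 to 170 rescaled TPM in the 18 libraries. Nearly all of this was Map2 (18.8 to 137) and Tubb3 (4.62 to 85.4), cytoskeletal genes that glia can also express, with Dcx at 1.01 to 8.32. The other 9 had means under 1, and of these Slc17a6 and Stmn2 were at most at 0.0126 and 0.114 in any library. The neuron sums overlapped between genotypes in OPCs and at DIV4 and were lower in null clones at DIV2, at 67.4 to 92.6 against 103 to 128; their part in the results was not tested. In such bulk samples, fewer cells of a type and less RNA per cell cannot be told apart.

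Several members are made in forms that differ in 1 or more exons, and the shares of these forms within a gene do not depend on how a library is scaled. For each form an exon that tells it apart is printed 5′ to 3′ in the direction of the gene, as GENCODE M21 transcripts on GRCm38 give it. The deposited table lists another length than GENCODE M21 for 8 of the 40 member transcripts, which include all 3 of Nfasc, both of Ncam1 and both of Nrcam, so the models behind the shares of these genes may not be the ones printed here. Nfasc-201 and Nfasc-203 (1157 and 1174 codons) are the glial form, which keeps a fibronectin domain encoded partly by an exon of 116 bases at chr1:132600099-132600214 on the minus strand. Nfasc-202 (1240 codons), the neuronal form, has in its place a mucin-like stretch whose exon of 237 bases lies at chr1:132588074-132588310 on the minus strand. Of its 78 whole codons 33 encode threonine, and these are in capitals.
Nfasc glial exon: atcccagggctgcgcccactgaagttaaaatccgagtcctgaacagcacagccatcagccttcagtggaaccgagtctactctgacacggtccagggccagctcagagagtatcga
Nfasc neuronal exon: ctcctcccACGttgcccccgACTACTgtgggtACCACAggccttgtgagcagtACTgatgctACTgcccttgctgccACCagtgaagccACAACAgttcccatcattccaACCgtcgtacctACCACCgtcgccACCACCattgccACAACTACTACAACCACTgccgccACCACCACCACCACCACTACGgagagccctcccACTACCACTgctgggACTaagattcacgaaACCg

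The Ncam1 transcripts differ at the membrane end of the protein. Ncam1-201 (725 codons) ends in coding sequence of 74 bases at chr9:49517509-49517582 on the minus strand, which carries the signal for a lipid (GPI) anchor. Ncam1-202 (849 codons) has instead an exon of 208 bases at chr9:49509705-49509912, also on the minus strand, in which a run of 18 codons for hydrophobic residues, in capitals, spans the membrane.
Ncam1 lipid-anchor end: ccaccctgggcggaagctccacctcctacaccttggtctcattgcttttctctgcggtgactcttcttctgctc
Ncam1 transmembrane exon: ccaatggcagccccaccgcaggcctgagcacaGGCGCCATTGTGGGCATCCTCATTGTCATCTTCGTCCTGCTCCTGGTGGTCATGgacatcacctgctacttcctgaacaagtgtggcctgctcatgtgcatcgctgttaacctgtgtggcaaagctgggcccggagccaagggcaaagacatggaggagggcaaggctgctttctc

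Cadm1 has alternative exons of 84 and 33 bases in the stem between its immunoglobulin domains and the membrane, at chr9:47818734-47818817 and chr9:47829377-47829409 on the plus strand. Threonine codons, the sites at which such stems can carry sugars, are in capitals, and number 17 of 27 whole codons in the longer exon and 4 of 10 in the shorter.
Cadm1 84-base exon: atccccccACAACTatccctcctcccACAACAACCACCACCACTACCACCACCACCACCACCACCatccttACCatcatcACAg
Cadm1 33-base exon: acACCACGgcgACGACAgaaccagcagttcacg

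**Figure D1:**
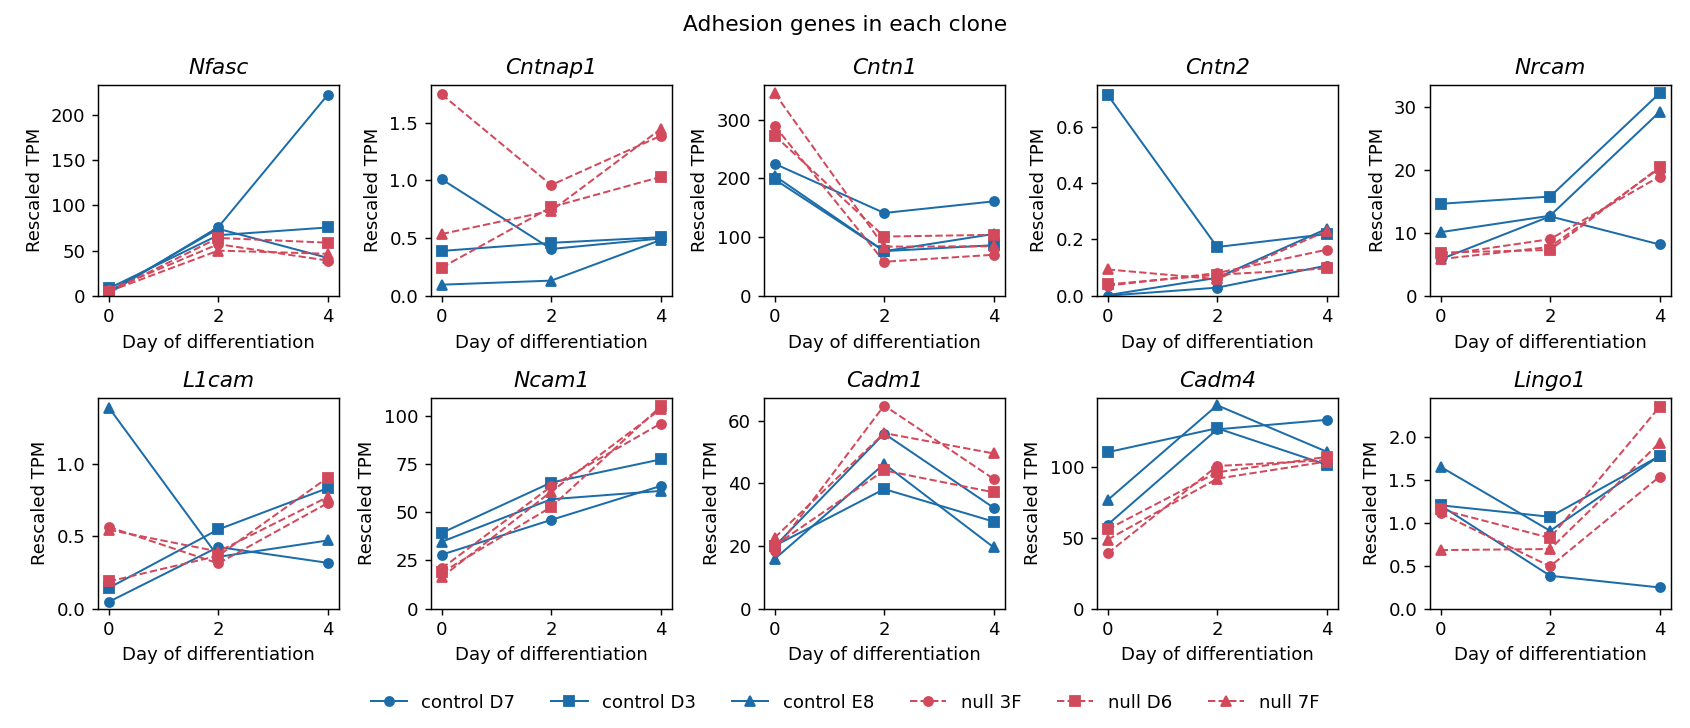
Rescaled TPM (vertical axes, each from 0) of the 10 genes against the day of differentiation (0 is OPC), with 1 line per clone; solid blue lines are control and dashed red lines are Thap1 null clones. Nfasc is between 2.61 and 8.04 in every OPC library and between 38.8 and 222.5 from DIV2 on, with control D7 at DIV4 as the highest point.

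Nfasc, the glial ligand of the axonal paranodal complex, was the member whose RNA changed by most with differentiation. The gene lies at chr1:132564690-132741797 on the minus strand. In control OPCs it stood at 2.61 in clone D7, 8.04 in D3 and 4.45 in E8, and in null OPCs at 5.94 in 3F, 4.05 in D6 and 4.72 in 7F. At DIV2 the control clones were at 75.9, 67.0 and 74.1 in the same order and the null clones at 57.1, 64.0 and 49.9, so that every DIV2 value lay far above every OPC value. Nfasc rose by 3.70 ± 0.44 log2 units (SE) from OPC to DIV2 in control clones (limma, adjusted p = 4.93e-05) and by 3.30 ± 0.44 in null clones (adjusted p = 0.000149).

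The 3 control clones lay above the 3 null clones for Nfasc at DIV2, by a difference that did not pass the test: -0.34 ± 0.44 log2 units for null minus control (adjusted p = 0.809). At DIV4 the control clones parted, with 222.5 in D7, 75.6 in D3 and 41.9 in E8, and the null clones, at 38.8, 58.7 and 46.4, overlapped the latter pair. The DIV4 difference was -0.90 ± 0.44 (adjusted p = 0.267), and -0.25 without control D7. The D7 library that gave the highest Nfasc value is the library with the highest oligodendrocyte and lowest astrocyte marker sums, and Mag, a myelin glycoprotein of the inner sheath, was at 520 there and at 68.9 to 118 in the other 5 DIV4 libraries. At DIV2 the oligodendrocyte marker sums were also all higher in control clones, at 3828 to 6634 against 3324 to 3770 in null clones. The part of cell composition in the Nfasc values was not tested.

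Most Nfasc RNA was assigned to the glial form, and nearly all of it at DIV2 and DIV4. Its share of the gene's TPM in OPCs was 82.3, 75.7 and 76.7% in control D7, D3 and E8 and 80.1, 84.2 and 86.9% in null 3F, D6 and 7F. At DIV2 it was 95.1 to 96.2% in control and 95.1 to 96.3% in null clones, and at DIV4 92.9 to 96.5% over all 6, so that the share was higher than in OPCs in 6 of 6 clones at both stages with no overlap. The genotypes overlapped at each stage, and the DIV4 difference was -0.46 percentage points (94.8% ± 1.52 in control, 94.4% ± 1.34 in null, SD, n = 3, exact two-sided permutation p = 0.7). With 3 clones against 3 the smallest p this test allows is 0.1. The neuronal Nfasc-202 itself was also higher later, at 2.35 to 3.30 rescaled TPM at DIV2 against 0.462 to 1.96 in OPCs. Within the glial form, Nfasc-203, which has an additional exon of 51 bases, made up 50.7 to 59.3% in the OPC libraries and 25.7 to 48.6% in the DIV2 and DIV4 libraries, lower than in OPCs in every clone. Only 4.47 and 2.25% of the 31-base words of Nfasc-201 and Nfasc-203 occur in no other Nfasc transcript, so this pair is hard to tell apart. These percentages are of GENCODE M21 sequences of 5072 and 3903 bases. The deposited table gives lengths of 9630 and 9580, so the percentages for its models may differ.

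Cntn1, a lipid-anchored protein that acts with Caspr on axons and is also made by OPCs, ran the opposite way. It was the most abundant of the 10 genes in OPCs, at 225, 198 and 204 rescaled TPM in control D7, D3 and E8 and 289, 273 and 345 in null 3F, D6 and 7F. At DIV2 the values were 141, 75.9 and 75.8 in control and 57.7, 101 and 83.5 in null clones, below every OPC value. Cntn1 fell by 1.15 ± 0.27 log2 units from OPC to DIV2 in control (limma, adjusted p = 0.00525) and by 1.92 ± 0.27 in null clones (adjusted p = 0.000229). The control fall depended on the scale. On deposited TPM the same comparison was 1.65 upward (adjusted p = 0.00106), less than the median of all genes (1.99). With protein-coding transcripts only it was -0.39 (adjusted p = 0.25), where the median gene was at 0.66. On rescaled TPM without control E8 the change was -1.02 (adjusted p = 0.0643).

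Cntn1 stayed at this lower level at DIV4, at 161, 86.0 and 105 in control and 69.7, 104 and 84.2 in null clones. Against OPCs it fell by 0.88 ± 0.27 in control (adjusted p = 0.025) and by 1.82 ± 0.27 in null clones (adjusted p = 0.000211); the control call was lost without D3, E8 or null 7F (adjusted p = 0.0566 to 0.111). That control fall was -0.47 with quantile normalization (adjusted p = 0.177) and -0.11 with protein-coding transcripts only (adjusted p = 0.759), and on deposited TPM the change was 1.91 upward (adjusted p = 0.000283). The median gene was at 0.70 with protein-coding transcripts only and at 2.04 on deposited TPM. All 3 null OPC libraries were above all 3 control OPC libraries, but the difference of 0.53 ± 0.27 did not pass the test (adjusted p = 0.224), and the genotypes overlapped at DIV2 and DIV4. The OPC difference passed with protein-coding transcripts only (0.98, adjusted p = 0.021) and on deposited TPM (2.67, adjusted p = 5.51e-05). The median gene was at 0.43 and 1.53 on these scales. All of the 3 coding transcripts of Cntn1 encode the same 1020 codons and differ outside the coding sequence. Cntn1-204 was higher in null OPCs by 0.95 (limma over 20374 transcripts, adjusted p = 0.0458), against 13.6% of transcripts called in that comparison, and the call was lost without control E8 or any null clone (adjusted p = 0.0744 to 0.237). Only 0.248% of the 31-base words of Cntn1-204 occur in no other Cntn1 transcript, so its level rests on little sequence of its own. Cntn1-202 made up 51.9% ± 3.53 of the gene in control OPCs and 40.7% ± 2.22 in null OPCs (SD, n = 3), groups that did not overlap (exact permutation p = 0.1, adjusted p = 0.3 over 24 share comparisons).

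Cntnap1 and Cntn2, members of the paranode and the adjacent juxtaparanode, were close to absent. Cntn2 was at 0 to 0.714 rescaled TPM, with its highest value in the control D3 OPC library, and Cntnap1 at 0.0952 to 1.75, so neither reached the mean of 1 needed for the test. At DIV4 Cntnap1 was at 0.496, 0.507 and 0.483 in the control clones (D7, D3, E8) and at 1.39, 1.03 and 1.45 in null 3F, D6 and 7F. The null clones lay above the control clones at DIV2 as well, where they were at 0.959, 0.768 and 0.736 against 0.405, 0.458 and 0.130. Cntnap1 overlaps Plekhh3 and Ccr10 on the other strand, and whether the counting used strand is not given in the sources used here.

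Nrcam, an L1-family protein that glia present at the node, was at 5.80, 14.6 and 10.1 in control D7, D3 and E8 and 6.44, 6.86 and 5.82 in null 3F, D6 and 7F as OPCs. At DIV2 the control clones, at 12.6, 15.8 and 12.7, lay above the null clones, at 9.003, 7.28 and 7.76, and at DIV4 the values were 8.15, 32.2 and 29.3 against 19.0, 20.5 and 20.3. Control D7 was thus the lowest control clone at every stage, and at DIV4 it was the lowest of all 6 while the other control clones were the highest. The genotype differences did not pass the test at any stage, at -0.52 ± 0.38 in OPCs (limma, adjusted p = 0.387), -0.70 ± 0.38 at DIV2 (adjusted p = 0.421) and 0.00 ± 0.38 at DIV4 (adjusted p = 1).

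Whether these differences passed the test depended on a single clone. Without control D7, Nrcam was lower in null clones at each stage, by -0.84 in OPCs (adjusted p = 0.00431), -0.76 at DIV2 (adjusted p = 0.0168) and -0.60 at DIV4 (adjusted p = 0.0377). The SE, shared by the stages, was then 0.15 in place of 0.38, while the DIV2 difference itself moved little. The OPC difference also depended on the scale. On deposited TPM, with all clones, it was 1.19 upward (adjusted p = 0.0529), where the median gene was at 1.53. Nrcam rose from OPC to DIV4 in null clones, by 1.51 ± 0.38 (adjusted p = 0.00693, and 0.0561 to 0.0812 without any 1 null clone). In control clones the rise of 0.99 ± 0.38 missed the threshold (adjusted p = 0.0592), and passed it with the clone as a block (adjusted p = 0.0149), with protein-coding transcripts only (1.79, adjusted p = 0.00291) and without the D7 library at DIV4 (1.58, adjusted p = 0.000648). With protein-coding transcripts only the median gene was at 0.70 in that comparison. From DIV2 to DIV4 the null clones differed by 1.22 ± 0.38 (adjusted p = 0.113, or 0.0311 with the clone as a block). The longer transcript Nrcam-201 (1256 codons) took 26.3 to 45.1% of the gene in OPCs and 19.2 to 34.6% later, with overlapping genotypes. L1cam, the X-linked relative that is abundant in neurons, was at 0.0464 to 1.39 in all 18 libraries and was not tested. Its highest value, in control E8 OPCs, was in the library with the lowest share of coding RNA. All of that value came from the retained-intron transcript L1cam-205, which also had the highest mean of the L1cam transcripts (0.31). The gene Arhgap4 overlaps L1cam on the same strand.

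**Figure D2:**
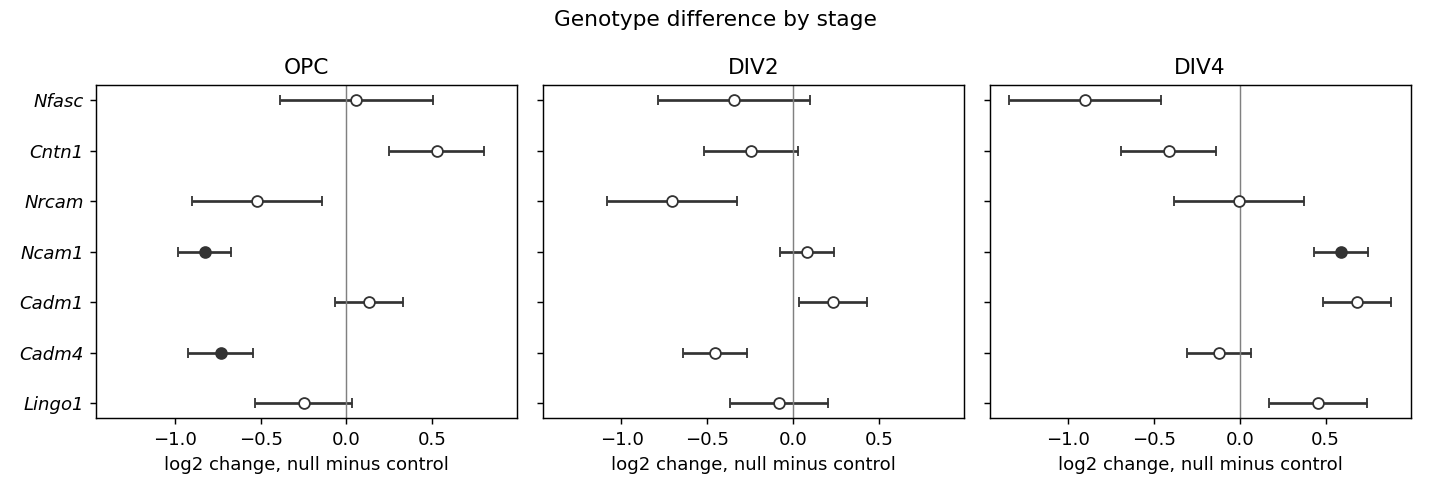
Genotype difference (log2 rescaled TPM + 1, null minus control; horizontal axis) for the 7 members that passed the filter, at OPC, DIV2 and DIV4. Points are the fitted differences, bars are ± 1 SE, and filled points passed an adjusted p of 0.05: Ncam1 and Cadm4 lie below 0 in OPCs, and Ncam1 lies above 0 at DIV4.

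Ncam1, a homophilic adhesion molecule on glia and axons, was the one member called in opposite directions at different stages. In OPCs it was at 28.0, 39.2 and 34.6 in control D7, D3 and E8 and 20.8, 18.7 and 16.3 in null 3F, D6 and 7F, with no overlap. At DIV2 the genotypes overlapped, at 46.0, 65.3 and 56.7 in control and 63.4, 52.7 and 60.6 in null clones. At DIV4 the null clones, at 95.9, 104.8 and 103.4, were all above the control clones, at 63.5, 77.3 and 61.0. Ncam1 was lower in null than in control OPCs by -0.83 ± 0.16 log2 units (limma, adjusted p = 0.00403) and higher by 0.59 ± 0.16 at DIV4 (adjusted p = 0.0418), while the DIV2 difference was 0.08 ± 0.16 (adjusted p = 0.884). Some marker sums also differed in OPCs: 8 OPC markers summed to 683 to 971 in control and 484 to 609 in null OPCs, and 6 Schwann cell markers to 112 to 119 and 73.5 to 79.3. The OPC marker sum was lower in null clones at the later stages too. It was at 222 to 298 against 302 to 504 at DIV2, where Ncam1 overlapped, and at 299 to 315 against 364 to 527 at DIV4. The Schwann cell marker sums overlapped at DIV2 and DIV4. Of these 6 markers 3 had a mean under 1 rescaled TPM, so the sum rests mainly on the other 3. Whether such cells were present was not tested. The part of these in the Ncam1 values, and in those of Cadm4 below, was not tested.

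Its rise with differentiation was accordingly steeper in null clones. From OPC to DIV4 Ncam1 rose by 0.97 ± 0.16 in control (adjusted p = 0.000451) and 2.39 ± 0.16 in null clones (adjusted p = 5.03e-07). The difference between these changes was 1.42 ± 0.22 (limma interaction, adjusted p = 0.0059), and 1.58% of tested genes were called higher in that comparison. From OPC to DIV2 the corresponding difference was 0.91 ± 0.22 (adjusted p = 0.0818, or 0.0423 with the clone as a block). In null clones Ncam1 also rose from DIV2 to DIV4, by 0.78 ± 0.16 (adjusted p = 0.0195, and 0.136 to 0.381 without any 1 null clone).

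The OPC side of this contrast depends on the scale. On deposited TPM Ncam1 was higher in null OPCs by 1.19 (adjusted p = 0.01), less than the median gene, and the DIV4 interaction was -0.75 (adjusted p = 0.213). With protein-coding transcripts only the OPC difference was -0.40 (adjusted p = 0.194), where the median gene was at 0.43, and without null clone 7F -0.74 (adjusted p = 0.0645). The interaction was 1.11 (adjusted p = 0.0776) in the former case and 1.31 (adjusted p = 0.127) in the latter. The DIV4 difference kept its sign on each scale tried and lost its call on deposited TPM (0.43, adjusted p = 0.735), with protein-coding transcripts only (0.70, adjusted p = 0.086), and without each clone other than control D7 and D3 (adjusted p = 0.136 to 0.228); without the D7 library at DIV4 it was 0.55 (adjusted p = 0.0898). An antisense gene, Gm11149, overlaps Ncam1.

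The lipid-anchored form made up most Ncam1 RNA. Its share in OPCs was 59.0, 62.4 and 62.9% in control D7, D3 and E8 and 64.1, 76.3 and 68.0% in null 3F, D6 and 7F, so the null clones were all higher (61.4% ± 2.13 against 69.5% ± 6.23, SD, n = 3, exact permutation p = 0.1, adjusted p = 0.3). At DIV2 the share was 74.9 to 85.5% in control and 78.6 to 85.4% in null clones, and at DIV4 82.0 to 85.6% and 77.6 to 84.1%, higher than in OPCs in all 6 clones. Both forms were lower in null OPCs, the transmembrane Ncam1-202 by -1.08 (limma over transcripts, adjusted p = 0.00744) and the lipid-anchored Ncam1-201 by -0.65 (adjusted p = 0.0262). On deposited TPM both signs turned, to 0.74 and 1.28. The call of Ncam1-202 was lost without null 7F (adjusted p = 0.0732) and that of Ncam1-201 without any clone other than control D7 (adjusted p = 0.0534 to 0.187).

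**Figure D3:**
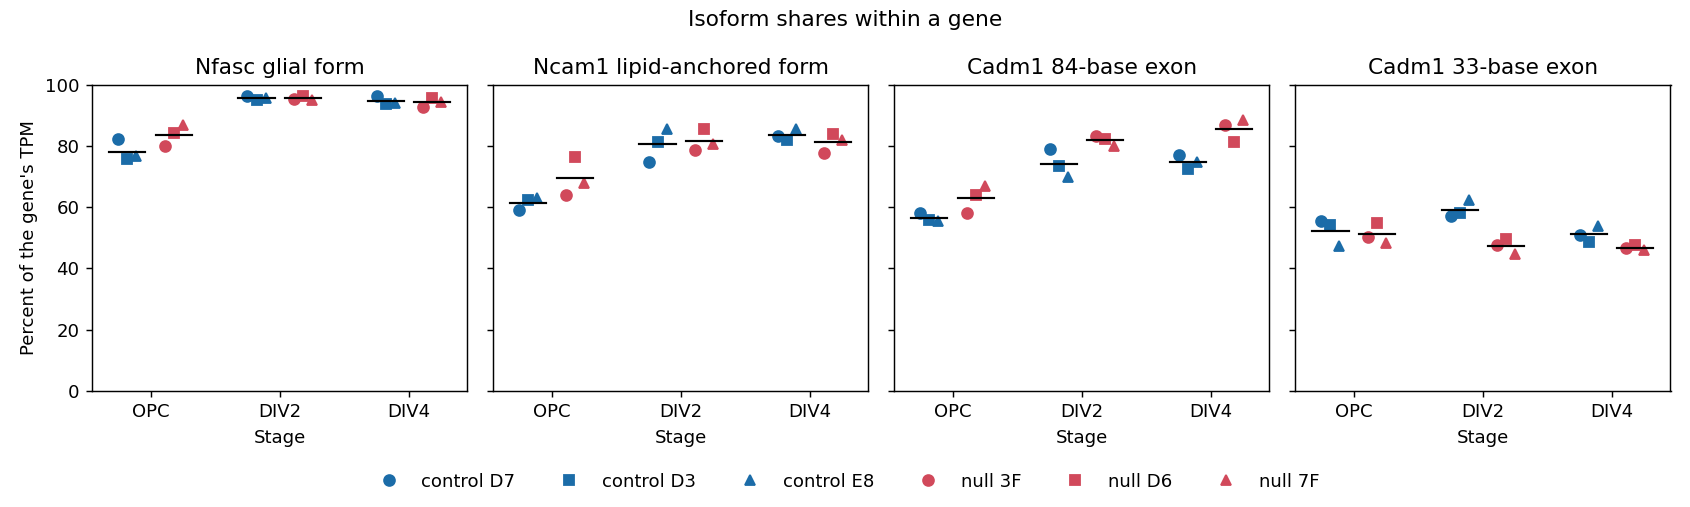
Percent of a gene's TPM (vertical axis, 0 to 100) carried by the glial form of Nfasc, the lipid-anchored form of Ncam1, and the Cadm1 transcripts with the 84-base or the 33-base exon, by stage; each point is a clone and each bar a mean of 3 clones. The null clones lie above the control clones for the 84-base exon and below them for the 33-base exon at DIV2 and DIV4.

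Cadm4, the SynCAM of myelinating glia that binds axonal partners, was among the most abundant members at every stage. In OPCs the control clones stood at 59.2, 110 and 76.5 (D7, D3, E8) and the null clones at 39.0, 55.9 and 48.6 (3F, D6, 7F). At DIV2 they were at 126, 127 and 143 against 100.5, 96.0 and 91.6, and at DIV4 133, 101 and 111 against 104.5, 107 and 104. The null clones were thus all below the control clones in OPCs and at DIV2, and within the control range at DIV4. Cadm4 was lower in null OPCs by -0.73 ± 0.19 (limma, adjusted p = 0.0206), and the differences of -0.46 ± 0.19 at DIV2 (adjusted p = 0.259) and -0.12 ± 0.19 at DIV4 (adjusted p = 0.776) did not pass. On deposited TPM the OPC difference was 1.36 in the other direction (adjusted p = 0.00257), where the median gene was at 1.53. With protein-coding transcripts only it was -0.29 (adjusted p = 0.335), where the median gene was at 0.43. The call was also lost without any 1 of control D3 or E8 or null 3F or 7F (adjusted p = 0.0519 to 0.136).

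Cadm4 rose from OPC to DIV2 in both genotypes, by 0.73 ± 0.19 in control (adjusted p = 0.00823, and 0.0882 without E8) and 1.01 ± 0.19 in null clones (adjusted p = 0.00136). From OPC to DIV4 the rise was 1.13 ± 0.19 in null clones (adjusted p = 0.000398) and 0.52 ± 0.19 in control clones (adjusted p = 0.0456, or 0.0679 with the clone as a block and 0.148 without the D7 library at DIV4). That control call was also lost without any clone other than D3 (adjusted p = 0.0687 to 0.462).

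Cadm1, the relative of Cadm4 that also links cells of many other tissues, was between 15.9 and 22.7 in all 6 OPC libraries. It peaked at DIV2, at 55.9, 38.2 and 46.2 in control D7, D3 and E8 and 64.9, 44.2 and 56.1 in null 3F, D6 and 7F. The rise from OPC was 1.28 ± 0.20 in control (adjusted p = 0.000296) and 1.37 ± 0.20 in null clones (adjusted p = 0.000242). At DIV4 the control clones were back at 32.2, 27.8 and 19.6, and the null clones, at 41.4, 37.2 and 49.6, were all higher. That difference, 0.69 ± 0.20, missed the threshold (adjusted p = 0.0606) and passed it with quantile normalization (0.80, adjusted p = 0.025), without control D7 (0.84, adjusted p = 0.0295) and without the D7 library at DIV4 alone (0.84, adjusted p = 0.0345). In null clones Cadm1 was still above its OPC level at DIV4, by 1.02 ± 0.20 (adjusted p = 0.0012), and in control clones by 0.47 ± 0.20 (adjusted p = 0.0831, or 0.0437 with the clone as a block), a value of 1.26 with protein-coding transcripts only (adjusted p = 0.000797). On that scale the median gene was at 0.70 in control clones.

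Among its transcripts, Cadm1-203 (445 codons, with the 84-base but not the 33-base exon) was higher in null clones at DIV4 by 0.91 (limma over transcripts, adjusted p = 0.0361), where 3.2% of transcripts were called. The call was lost when control D3 or E8 or null 3F or 7F was left out (adjusted p = 0.0505 to 0.267) and on deposited TPM (0.78, adjusted p = 0.242). Cadm1 transcripts are hard to tell apart, since at most 4.62% of the 31-base words of any of the 5 most abundant occur in no other Cadm1 transcript.

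The share of Cadm1 RNA with the 84-base exon was 79.1, 73.5 and 70.0% in control D7, D3 and E8 and 83.4, 82.3 and 80.0% in null 3F, D6 and 7F at DIV2, and 77.2, 72.6 and 74.8% against 86.8, 81.3 and 88.6% at DIV4. All null clones were higher at both stages, by 7.70 and 10.7 percentage points (exact permutation p = 0.1 each, adjusted p = 0.3). In OPCs the share was 55.6 to 58.0% in control and 58.0 to 67.0% in null clones, below every later value. The 33-base exon was carried by 57.1, 58.2 and 62.5% in control D7, D3 and E8 and 47.8, 49.8 and 44.6% in null clones at DIV2, a difference of -11.9 points, and the difference was -4.41 points at DIV4 (exact permutation p = 0.1 each, adjusted p = 0.3). Cadm1-204, with the 33-base exon alone of the pair, was accordingly less of the gene in null clones, at 12.98% ± 1.32 against 21.6% ± 4.13 at DIV2 and 9.29% ± 1.54 against 16.2% ± 3.40 at DIV4 (SD, n = 3).

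Lingo1 was low throughout. In OPCs it was at 1.203, 1.205 and 1.65 in control D7, D3 and E8 and 1.11, 1.16 and 0.683 in null 3F, D6 and 7F, at DIV2 at 0.383, 1.07 and 0.908 against 0.493, 0.824 and 0.695, and at DIV4 at 0.246, 1.78 and 1.78 against 1.54, 2.35 and 1.94. At DIV4 control D7 was far below the other 5 libraries, which overlapped between genotypes. No genotype difference passed the test, with 0.46 ± 0.29 at DIV4 (limma, adjusted p = 0.398). From DIV2 to DIV4 Lingo1 was 0.81 ± 0.29 higher in null clones (adjusted p = 0.157), which passed when the spread was estimated without the control D7 library at DIV4 (adjusted p = 0.0317).

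Counted together, 7 of the 10 members passed the filter on low values. Of these, 2 were called lower and 0 higher in null OPCs, where 6.46% of all tested genes were called lower. At DIV2 no member was called, against 2.84% of genes, and 1 had an unadjusted p under 0.05 (Cadm4). At DIV4, 1 was called higher, against 2.66% of genes. The median change of the 7 was -0.25, -0.24 and 0.00 at the 3 stages, beside 0.02, 0.00 and -0.02 over all tested genes. With 7 genes, these counts do not set the members apart from the background. Groups without overlap were found for 4 of the 7 at OPC, 3 at DIV2 and 2 at DIV4, where 25.8%, 31% and 27.2% of tested genes had none.

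With differentiation, 4 members rose and 1 fell from OPC to DIV2 in control clones, and also in null clones. Of all tested genes 15.5% rose and 19.8% fell in control and 13% rose and 15.6% fell in null clones. From OPC to DIV4, 3 rose and 1 fell in control and 5 rose and 1 fell in null clones. Of all genes 15.5% rose and 17.1% fell in control and 16.2% rose and 17.4% fell in null clones. From DIV2 to DIV4 no member was called in control clones, against 0.24% of genes, with 1 at an unadjusted p under 0.05 (Cadm1), and 1 rose in null clones, against 1.24%. Without the D7 library at DIV4, 2 members were called in that control comparison, Nrcam at 1.11 (adjusted p = 0.021) and Cadm1 at -0.96 (adjusted p = 0.0205), and 3 in the null comparison. Of all 12479 tested genes, 677 and 675 were called in these. The interaction from OPC to DIV2 called no member, against 0.497% of genes, with Ncam1 at an unadjusted p under 0.05.

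Ordered by level, Cntn1 led in both OPC groups, followed by Cadm4, with no overlap between them. At DIV2 Cadm4 led in both genotypes and overlapped Cntn1. At DIV4 Cntn1 had the highest mean in control clones, at 117 ± 38.8 (SD, n = 3), and overlapped Cadm4 at 115 ± 16.2. In null clones at DIV4 Cadm4 led, at 105.0 ± 1.71, overlapping Ncam1 at 101 ± 4.76, and Cntn1 followed at 85.9 ± 17.1. By its mean, Nrcam was the lowest of the 6 genes above the trace level from DIV2 on, but in control clones at DIV4 it overlapped Cadm1 and lay above it in D3 and E8. Nfasc had the lowest mean of these in OPCs, where it overlapped Nrcam.

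**Figure D4:**
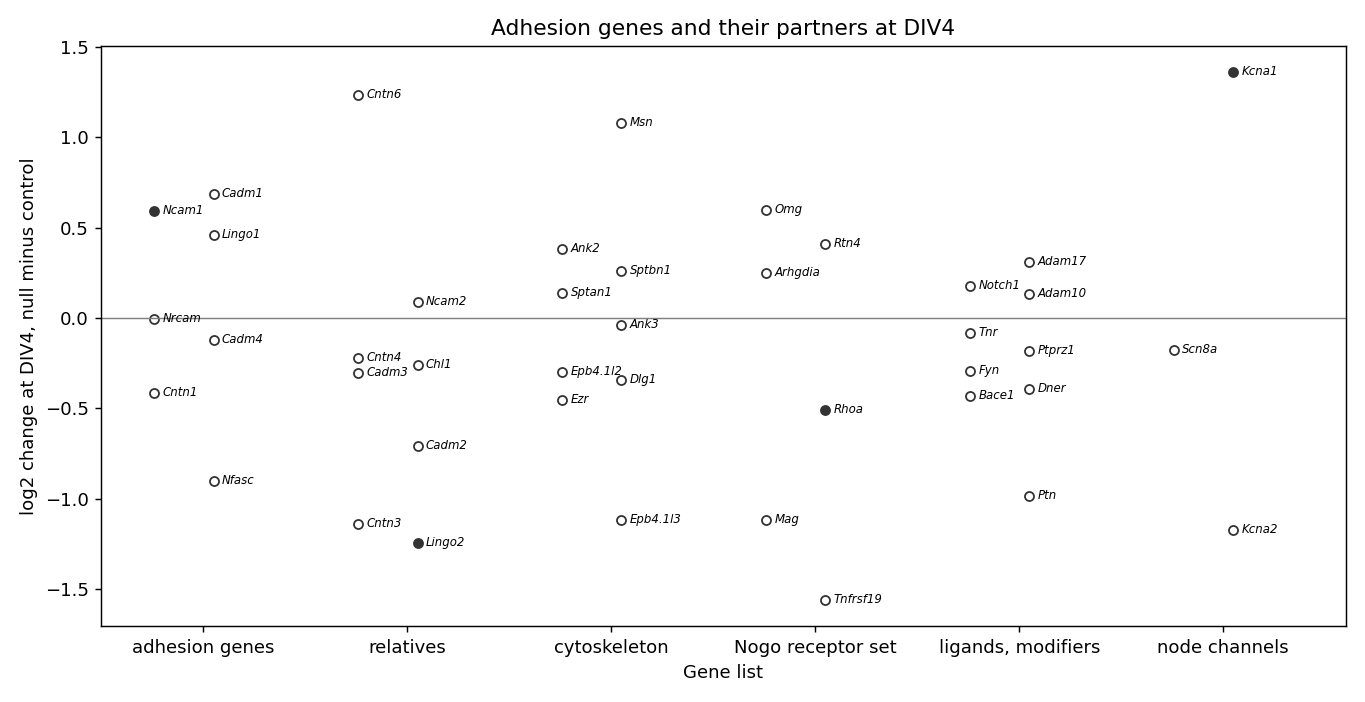
Null minus control at DIV4 (log2 rescaled TPM + 1; vertical axis) for each tested gene of the adhesion set and of 5 partner lists (horizontal axis). Filled points passed an adjusted p of 0.05: Kcna1 among the channels and Ncam1 lie above 0, and Rhoa and Lingo2 lie below it.

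The molecules that work with these proteins were read from 5 lists with 53 genes, of which 35 were tested. In null OPCs 2 of the 35 were higher and 0 lower, against 6.05% and 6.46% of all tested genes. At DIV2 3 were higher and 0 lower, against 1.63% and 1.2%, and at DIV4 1 was higher and 2 were lower, against 2.66% and 2.4%. Counts this small do not set the partners apart from the background. The partner calls here and below come from the main fit alone, and how they hold when a clone is left out was not tested. The channels of the node and juxtaparanode, neuronal proteins in the first place, held 1 DIV4 call among 3 tested genes, with a median change of -0.18. Kcna1, a potassium channel subunit that lies beside the paranode in axons, was at 0.0479 to 0.575 in OPCs. At DIV4 it was at 60.7, 46.7 and 25.9 in control D7, D3 and E8 and 91.2, 109.6 and 130 in null 3F, D6 and 7F. All null clones were above all control clones, also at DIV2, where Kcna1 was at 34.2, 38.0 and 30.99 in control and 80.4, 65.1 and 90.4 in null clones. It was higher in null clones by 1.16 ± 0.24 at DIV2 (limma, adjusted p = 0.0181) and 1.36 ± 0.24 at DIV4 (adjusted p = 0.00559), and on the deposited and coding-only scales the DIV4 difference was 1.21 and 1.48.

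Among the Nogo receptor components and ligands, Rhoa, the small GTPase through which that receptor acts, was lower in null clones at DIV4, at 49.1, 48.3 and 45.7 against 76.3, 60.7 and 68.4 (-0.51 ± 0.10, adjusted p = 0.0111). Omg, a myelin ligand of the same receptor, was higher in null OPCs by 1.18 ± 0.25 (adjusted p = 0.0075) and at DIV2 by 1.25 ± 0.25 (adjusted p = 0.0129), with DIV2 values of 10.02, 13.2 and 13.7 in control and 32.5, 23.3 and 36.9 in null clones.

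Of the 8 tested relatives of the members, Lingo2 was the single call, lower in null clones at DIV4 by -1.24 ± 0.28 (adjusted p = 0.0201), at 4.59, 2.91 and 1.69 in control against 0.920, 0.569 and 0.477. Cadm2, another SynCAM, was at 36.6, 37.6 and 27.0 in control and 20.3, 20.1 and 19.9 in null clones at DIV4, a difference of -0.71 ± 0.22 (adjusted p = 0.0741, and -0.82 with adjusted p = 0.06 at DIV2), and Ncam2 differed by 0.09 ± 0.26 (adjusted p = 0.903). Among 9 cytoskeletal partners, Msn, which links membrane proteins to actin, was higher in null clones at DIV2 (1.54 ± 0.38, adjusted p = 0.0464). The spectrins Sptan1 and Sptbn1, the most abundant of that list, differed at DIV4 by 0.14 ± 0.13 and 0.26 ± 0.21 (adjusted p = 0.601 and 0.547). Among 9 ligands and modifiers, the protease Adam17 was higher in null OPCs by 0.28 ± 0.09 (adjusted p = 0.0487). Fyn, a kinase downstream of contactin, differed by -0.97 ± 0.25 at DIV2 (adjusted p = 0.0556) and -0.29 ± 0.25 at DIV4 (adjusted p = 0.569). The growth factor Ptn differed by -1.32 ± 0.36 at DIV2 (adjusted p = 0.0718) and -0.99 ± 0.36 at DIV4 (adjusted p = 0.133).

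The genes whose levels followed Nfasc most closely over the 18 libraries, among 7573 genes with a mean of at least 5 rescaled TPM, were Ccdc13 and Plcl1 (Pearson r = 0.98 each), Mag (r = 0.98), Dgat2 (r = 0.98) and Irs1 (r = 0.98). Those closest to Lingo1 were Magi2 (r = 0.93), Olfm2 (r = 0.93), Arid5a (r = 0.92), Pcdhga9 (r = 0.89) and Slc7a5 (r = 0.89). The libraries share 6 clones and 3 stages, so these values are a description.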

How the data were processed

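Per the labels' protocols, total RNA was depleted of ribosomal RNA and made into stranded libraries. The authors deposited TPM per Ensembl transcript, each library summing to 1000000 over 93666 transcripts; mm10, STAR and Picard are named in the submitters' processing notes, and the quantifier is not given in the sources used here. The deposited table also lists a transcript length, an other value used only for comparison: 32 of the 40 member transcripts have the GENCODE M21 length, and the other 8 are Cntn2 and all those of Nfasc, Ncam1 and Nrcam. Depth is unknown, so precision rests on 3 clones per group.

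Deposited TPM of a gene's transcripts was added up and divided by median-of-ratios factors (7757 genes; 0.118 to 0.316 in control OPC libraries, 0.723 to 1.97 in the others). Genes with a mean of at least 1 rescaled TPM (12479) were tested on log2(value + 1) with limma 3.58.1 in R 4.3.3 (1 mean per group over 18 libraries, eBayes with trend, Benjamini-Hochberg); calls are adjusted p under 0.05. The script was tested on simulated data. Isoform shares were compared by exact two-sided permutation tests. Each clone runs through all 3 stages, so stages are paired by cell line: deviations from group means correlated at 0.12 on average for the same clone and -0.06 for different clones. The latter value largely follows from the former, since the deviations of the 3 clones in a group sum to 0. The fit with clone as a block was an alternative, beside deposited, coding-only and quantile scaling, pseudocount 0.1, other filters, fewer libraries and leaving out each clone. For single partner genes, only values on the deposited and coding-only scales were read beside the main fit. Leaving out the control D7 library at DIV4 was chosen after seeing the data. The members and lists were chosen with earlier results of these data known. Partner genes named were those called at DIV4 with the largest change (mean at least 5), or the 2 most abundant of a list; Omg, Lingo2, Msn and Adam17 fall outside that rule and were chosen after their values were seen. A single item of the partner lists is not reported here.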

Additional observations from a re-analysis of the deposited data

Results flagged for a closer look

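The change of Ncam1 from OPC to DIV4 differed between the genotypes: it was 1.42 log2 units larger in null than in control clones (limma interaction, adjusted p = 0.0059), and Ncam1 rose in 3 of 3 clones of each genotype. On deposited TPM this difference had the other sign (-0.75). The share of Cadm1 RNA with the 33-base exon was higher at DIV2 than at OPC in every control clone and lower in every null clone, and the mean changes differed by -10.7 percentage points; that difference was not tested.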

How the results depend on the processing

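Depth is unknown and each group holds 3 clones. Leaving out each clone moved the number of members called between null and control from 0 to 3 in OPCs, 0 to 1 at DIV2 and 0 to 3 at DIV4. The number called of all 12479 tested genes moved from 360 to 2420, 102 to 654 and 106 to 1113. By stage the number of members called moved from 3 to 5 (control, DIV2 against OPC), 2 to 4 (control, DIV4 against OPC), 0 to 1 (control, DIV4 against DIV2) and 0 to 3 (null, DIV4 against DIV2), and for both interactions from 0 to 1. For all tested genes it moved from 2740 to 4716, 2414 to 4510, 11 to 298 and 3 to 822 in the same order. For the DIV2 and DIV4 interactions it moved from 14 to 365 and 16 to 1238. On deposited TPM the counts between genotypes were 5 in OPCs and 0 at DIV4. On the same scale 7 members were called in control DIV4 against OPC, 0 in null DIV4 against DIV2, and 6 and 4 in the DIV2 and DIV4 interactions. Of all 12894 genes tested there, 10446, 358, 11364, 67, 9366 and 9481 were called in these comparisons, in the same order. With protein-coding transcripts only the member counts were 1 in OPCs, 0 at DIV4 and 0 in the DIV4 interaction, where 2796, 541 and 266 of 12490 genes were called. Fitting only the libraries compared, with fewer samples behind the spread, left 0 in OPCs and 0 at DIV4, 3 and 1 in control DIV2 and DIV4 against OPC, and gave 3 in null DIV4 against DIV2. Of all 12479 genes, 262, 173, 2131, 316 and 1924 were called there. Without a filter the DIV4 count was 0 and that of control DIV4 against OPC 2, where 599 and 4007 of 30396 genes were called. Quantile normalization gave 2 at DIV4, where 930 of 12894 genes were called. With the replicate block (the clone), 2 members were called in null DIV4 against DIV2 and 1 in the DIV2 interaction, where 530 and 102 of 12479 genes were called. The block turned the Cadm1, Nrcam and Cadm4 calls already given beside control DIV4 against OPC, and changed no other call. Without the D7 library at DIV4, chosen after seeing the data, 2 members were called in control and 3 in null DIV4 against DIV2. Of all 12479 genes, 677 and 675 were called there.

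Signs turned on deposited TPM between null and control OPCs for Cadm4 (1.36), Lingo1 (0.59), Ncam1 (1.19) and Nrcam (1.19), for Ncam1 at DIV2 (-0.090), for Cntn1 (1.65 and 1.91) and Lingo1 (0.75 and 1.16) in control DIV2 and DIV4 against OPC, for the DIV2 and DIV4 interactions of Ncam1 (-1.28 and -0.75), Cadm1 (-1.96 and -1.49), Cadm4 (-1.99 and -1.64) and Lingo1 (-0.78 and -0.26), for the DIV4 interaction of Nrcam (-1.36), and for the OPC differences of Cadm4-201 (1.36), Ncam1-202 (0.74) and Ncam1-201 (1.28). On deposited TPM the median gene was at -1.66 and -1.68 in the DIV2 and DIV4 interactions. With protein-coding transcripts only the DIV2 interactions of Cadm1 (-0.41), Cadm4 (-0.22) and Lingo1 (-0.15) turned, where the median gene was at -0.46. Nrcam at DIV4, at 0.00, was 0.11 with protein-coding transcripts only and 0.0095 with a pseudocount of 0.1, and Lingo1 in control DIV4 against OPC was 0.31 with protein-coding transcripts only and 0.25 without the D7 library at DIV4. Leaving out a clone crossed 0 for Nfasc in OPCs (-0.26 to 0.40), Cntn1 (-0.42 to 0.051), Lingo1 (-0.26 to 0.036) and Ncam1 (-0.051 to 0.20) at DIV2, Nrcam at DIV4 (-0.60 to 0.33), and Lingo1 in control DIV4 against OPC (-0.38 to 0.20). It also turned the DIV2 interactions of Nrcam (0.084) and Cadm1 (-0.092 and -0.094) and the DIV4 interaction of Nfasc (0.016), and leaving out the D7 library at DIV4 turned that of Nrcam (-0.08). The cause was not tested. Of 809 alternative values of gene changes 715 kept their direction and side of the threshold. This count leaves out DIV4 against DIV2 and the interactions of every member but Ncam1, so most of the turned interactions above are not in it. The 216 alternative values of genotype differences in isoform share all stayed within 1 SD, but this count cannot show that they are robust. Leaving out a clone cannot move a group mean by as much as 1 SD, and shares do not depend on how a library is scaled.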
